A study of Mus musculus with 8 samples.

Results

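Unannotated splice isoforms of known genes were compared between ventricles of control mice and of mice that carry a Cre-driven deletion of the SoxD transcription factor genes Sox5 and Sox6 in cardiomyocytes. The authors assembled transcripts from their reads and compared each with a reference annotation. A transcript that shares at least 1 splice junction with an annotated transcript, but differs from it elsewhere, carries class code j, and one whose introns all match carries class code =. Members were the class j isoforms of the authors' isoform table with a length of at least 200 bases and a mean of at least 1 FPKM over both genotypes. FPKM counts fragments per length of transcript and per mapped fragments of the library, so it compares genes of different length. Of 35754 isoforms listed, 5678 were class j, 30046 were class = and 30 had another code. The length and FPKM rule kept 3910 class j isoforms, which lay in 2342 of 23100 genes, and left out 2 for length and 1766 for level. Members were thus selected on their FPKM level, which is given as a description.

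The samples were cardiac ventricles of 8 mice aged 4.5 months, taken with the atria removed. All 8 animals were Sox5fl/fl and Sox6fl/fl, so that both genes can be deleted by Cre recombinase. The 4 DKO animals were aMHC-Cre positive, and the 4 Ctrl animals were aMHC-Cre negative. The aMHC promoter drives Cre in cardiomyocytes, so the other cells of the ventricle keep both genes, and effects of Cre itself and of the deletion cannot be told apart. Pressure overload appears in the title of the series, but no operation is given for any of these animals. The tables hold 1 FPKM value per genotype, pooled by the authors over its animals, so no spread between animals is known and every test is the authors' own Cuffdiff test.

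Most mammalian genes make several mRNAs. Exons can be kept or skipped, splice sites a few bases apart can compete, and transcription can begin or end at different places, so that 1 gene yields proteins with different segments. In heart muscle such choices set the length of the spring protein titin and the makeup of calcium channels and kinases. RBM20, MBNL, CELF, RBFOX and SR proteins are known regulators of these choices. Short-read assembly infers whole isoforms from fragments of them, and the level of each isoform is a model estimate that divides shared reads among the isoforms of a gene.

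Length gave 1 view of how the members differ from the annotated isoforms. Among 2213 members that differed by 1 to 300 bases from the annotated isoform listed as nearest, 1028 (46.5%) differed by a multiple of 3, against 32.7% of the 1680 members that differed by more. The most frequent difference was 3 bases, with 66 members. A member was set beside the coding exons of its gene in GENCODE M21 to find pieces of exactly the length of its difference. A piece was either a coding exon that another annotated transcript of the gene skips, or the stretch between 2 alternative ends of a coding exon. The match is one of length, since the assembled sequences were not analysed here, and it does not show that the piece is the one that differs. The sequences below are those of members with a call, a large difference in share, or a known role in heart muscle or splicing. They come from GENCODE M21 transcripts on GRCm38, run 5′ to 3′ on the gene's strand, and show the piece in capitals between up to 15 coding bases on each side in the spliced transcript. The called members with a matching skipped exon were Kdm1a, whose member is 60 bases longer than its annotated isoform (chr4:136582040-136582099, minus strand), and Zfyve21, 54 bases longer (chr12:111825579-111825632, plus strand). The skipped exons of Tia1 (chr6:86419101-86419133, plus strand), Tpp2 (chr1:43985416-43985454, plus strand), Mbnl1 (chr3:60621423-60621458, plus strand) and Nexn (chr3:152249660-152249701, minus strand) match members that are 33, 39, 36 and 42 bases shorter than the annotated isoform. The skipped exon of Gdpd5 (chr7:99456997-99457011, plus strand) matches a member that is 15 bases longer.
Kdm1a, exon of 60 bases: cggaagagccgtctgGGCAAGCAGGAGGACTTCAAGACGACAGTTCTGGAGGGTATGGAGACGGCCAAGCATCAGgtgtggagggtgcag
Zfyve21, exon of 54 bases: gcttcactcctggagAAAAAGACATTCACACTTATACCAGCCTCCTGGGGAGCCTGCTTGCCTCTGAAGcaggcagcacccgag
Tia1, exon of 33 bases: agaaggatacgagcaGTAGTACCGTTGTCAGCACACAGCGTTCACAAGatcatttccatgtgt
Tpp2, exon of 39 bases: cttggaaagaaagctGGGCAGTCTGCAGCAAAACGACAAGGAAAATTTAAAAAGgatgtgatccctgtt
Gdpd5, exon of 15 bases: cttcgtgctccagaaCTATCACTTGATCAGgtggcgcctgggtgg
Mbnl1, exon of 36 bases: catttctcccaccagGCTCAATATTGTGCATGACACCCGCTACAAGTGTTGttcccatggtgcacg
Nexn, exon of 42 bases: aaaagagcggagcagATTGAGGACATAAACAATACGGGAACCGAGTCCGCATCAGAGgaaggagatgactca

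Alternative exon ends gave shorter pieces, most often a single codon. The pieces shown are those of Ankib1, with a member 18 bases longer (chr5:3694876-3694893, minus strand), Arid1a, with a member 3 bases shorter (chr4:133687377-133687379, minus strand), and Sos2, with a member 3 bases longer (chr12:69618181-69618183, minus strand). In each, the piece lies at the 5′ end of an exon, where the spliceosome chooses an acceptor site, and its letters end in AG, the last letters of an intron when the inner site is used.
Ankib1, exon end of 18 bases: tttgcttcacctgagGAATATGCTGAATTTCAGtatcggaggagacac
Arid1a, exon end of 3 bases: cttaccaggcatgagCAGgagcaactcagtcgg
Sos2, exon end of 3 bases: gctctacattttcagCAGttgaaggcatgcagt

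A skipped coding exon of matching length was found for 197 members in 192 genes, and an alternative exon end for 132 members in 126 genes, with 3 members matching both kinds. When bases were added to or taken from the length difference, up to 3 either way, the matches to skipped exons numbered 4 to 17 and those to exon ends 3 to 14. Of the members with a skipped-exon match, 121 were shorter and 76 longer than the annotated isoform, and 188 (95.4%) differed by a multiple of 3. Of those with an exon-end match, 91 were shorter and 41 longer, and 47 differed by 3 bases. The 3-base pieces at the 5′ end of an exon belonged to 42 members, all 42 ended in AG, and 34 read CAG. At the 3′ end of an exon there were 5 members with a 3-base piece, of which 1 ended in AG. These letters and lengths are those of annotated pieces, searched in protein-coding transcripts only. Acceptor sites follow AG, so the AG endings are set by the annotation and say nothing about the members. The share with AG, or with a multiple of 3, among all such GENCODE pieces was not counted. Members were also split by the start of the transcript. Of members with 1 to 300 bases of difference that shared a start group with an annotated isoform, 57.4% differed by a multiple of 3, against 32.7% of those with a start of their own. Another start can itself change the length, and its part was not tested.

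**Figure D1:**
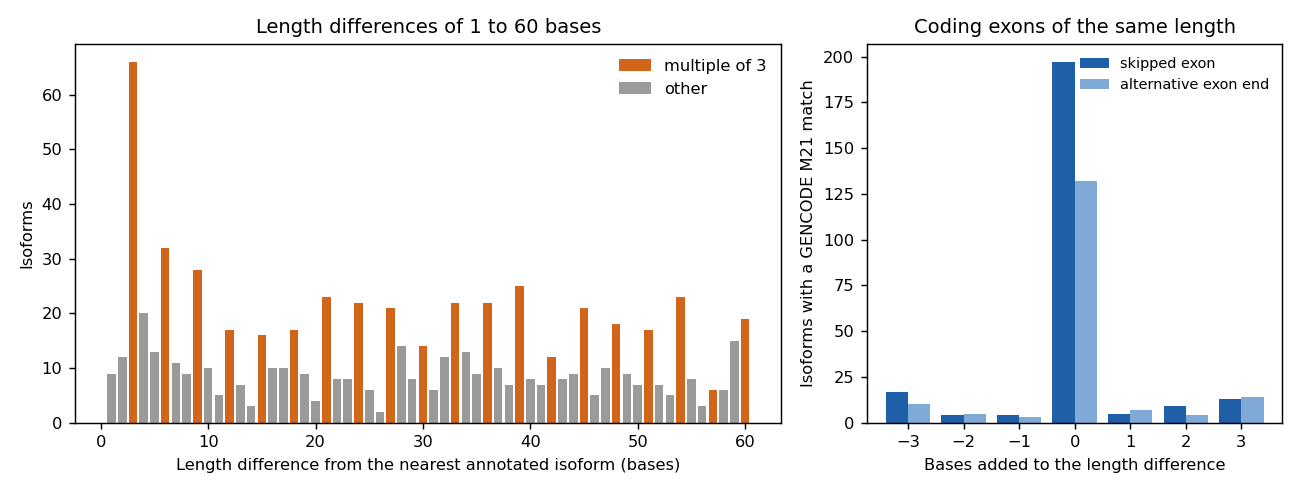
Left, number of members (y axis) at each difference in length from the nearest annotated isoform, from 1 to 60 bases (x axis), with multiples of 3 in orange and other differences in grey; the bar at 3 bases is the highest, with 66 members. Right, number of members whose difference equals the length of a skipped coding exon (dark blue) or of an alternative exon end (light blue) of the same gene in GENCODE M21, for the true difference at 0 (197 and 132 members) and for differences altered by up to 3 bases (x axis).

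The members, which were kept by their level, held a large part of the FPKM total of their genes. Their mean level ran from 1.00 to 3932 FPKM with a median of 7.50, and their median share of the gene total was 26.4% in each genotype. Annotated isoforms of the same genes at the same length and level, 2741 in number, had a median share of 34.1% in DKO and 34.8% in Ctrl. Summed over all members of a gene, the median share was 52.2% in DKO and 52.6% in Ctrl, and the median difference between genotypes was 0.118 percentage points with quartiles of -3.19 and 3.85. Most genes with a member had 1 (1471 genes), 489 had 2, 231 had 3 and 151 had 4 or more. Most members, 3387 (86.6%), were shorter than the annotated isoform, by a median absolute difference of 230 bases over all members. Near the level threshold, the members just inside were isoforms of Srek1 (1.78 FPKM in DKO against 0.221 in Ctrl), Nrbp2 (2.00 and 0.00374) and Mycbp2 (1.24 and 0.770), and the isoforms just outside were those of Ankhd1 (0.850 and 1.14), Plekha6 (1.44 and 0.551) and Sbno1 (1.46 and 0.531).

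The members with the highest levels belonged to energy metabolism of heart muscle, and their shares were nearly the same in both genotypes. Atp5k encodes a subunit of mitochondrial ATP synthase. Its 221-base member was at 3712 FPKM in DKO against 4152 in Ctrl, a share of 77.7% and 77.3%. A member of Atp5b, the catalytic beta subunit, held 53.2% and 52.6% (3532 and 4042 FPKM). Fabp3 encodes the fatty acid binding protein of heart muscle, and its member held 57.0% and 56.3% (3349 and 3617 FPKM). The cytochrome c oxidase subunit genes Cox8b and Cox7a1 had members of 211 and 225 bases, beside annotated isoforms of 363 and 366 bases. The share was 67.2% in DKO and 68.1% in Ctrl for the Cox8b member, and 51.6% and 50.9% for the Cox7a1 member. Whether the short length of the Atp5k, Cox8b and Cox7a1 members affects their FPKM values, and so their shares, was not tested. None of these 5 members was called. The Cox7a1 gene as a whole was lower in DKO, at 5597 against 7641 FPKM (q = 0.00631 in the authors' deposited table), and its member was at 2891 and 3890 FPKM (q = 0.629).

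An isoform was called when the authors' Cuffdiff test gave a q of at most 0.05. All 3910 members had a test, and 35 were called, or 0.895%. The background was 3.02% of the 18490 tested isoforms, 3.75% of the annotated isoforms at the same length and level in any gene, and 1.3% of the 2613 tested annotated isoforms of the same genes. In DKO, 15 members were higher (0.384%), against 1.9% of tested isoforms, 2.39% of annotated isoforms at that level and 0.498% of those in the same genes. Another 20 were lower (0.512%), against 1.12%, 1.36% and 0.804%. Whole genes with a member were called in 204 of 2342 cases (8.71%, against 7.36% of tested genes). Of these genes, 74 were higher (3.16%, against 4.3%) and 130 were lower (5.55%, against 3.06%). At an unadjusted p under 0.05 in the authors' test there were 214 of the 3910 members. The same count over all tested isoforms was not made, so the 214 have no background here. The median log2 ratio of DKO over Ctrl was -0.03 among members and -0.01 among all tested isoforms. The folds of called members were modest, from 1.24 to 2.66 among the higher ones and from 1.26 to 3.07 among the lower ones. Of the 691 members with a fold of at least 2, 9 were called.

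**Figure D2:**
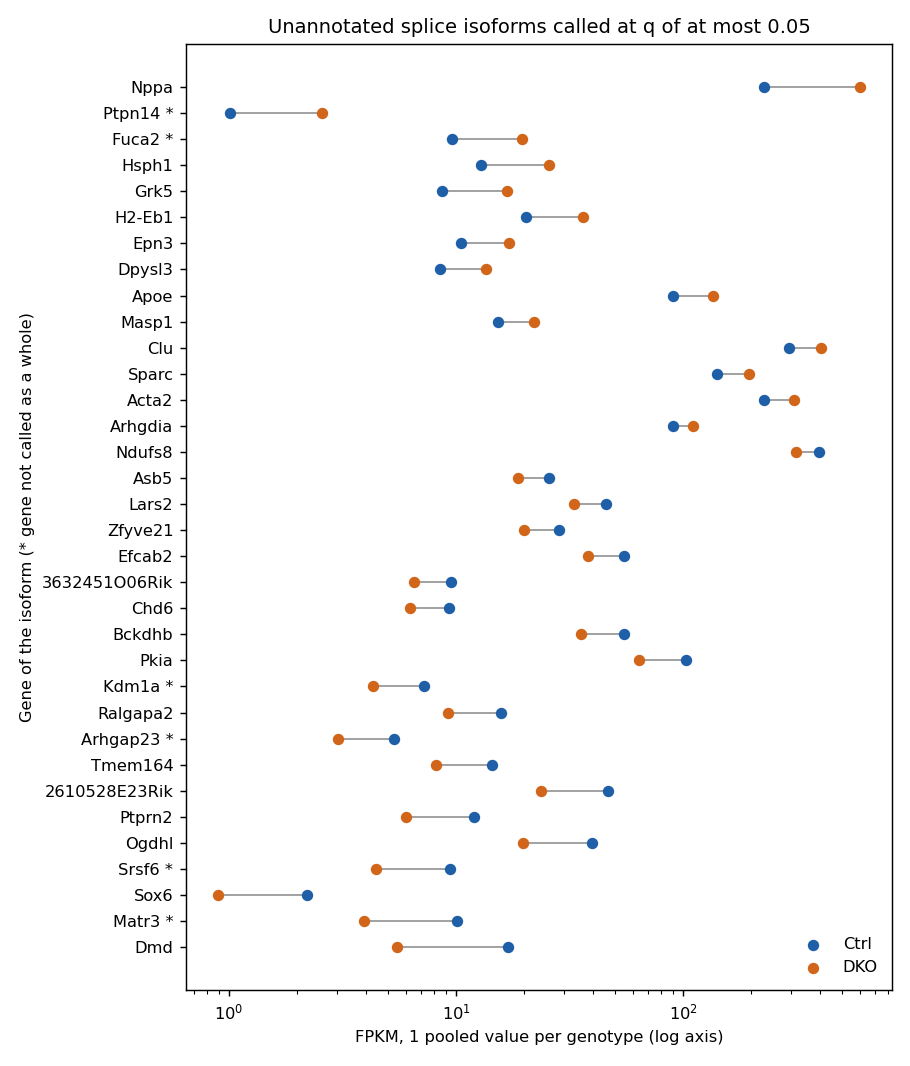
FPKM of 34 of the 35 called members (x axis, log scale) in Ctrl (blue) and DKO (orange), 1 pooled value per genotype with no error, ordered by log2 ratio from Nppa, the largest rise, at the top to Dmd, the largest fall, at the bottom; a star marks the 6 genes that were not called as a whole.

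Most called members moved with their gene. For 29 of the 35 the whole gene, whose value comes from the same reads, was called in the same direction, and in 3 of these the share of the gene differed by at least 10 percentage points. Nppa encodes atrial natriuretic peptide, a hormone of stressed heart muscle. Its 544-base member was at 604 FPKM in DKO against 227 in Ctrl, 2.66-fold higher (q = 0.00312 in the authors' deposited table), while its share was 46.3% and 48.8%. The annotated Nppa isoform was also called, at 700 and 237 FPKM. Of the other atrial markers, Myl7 was at 0.140 and 0.192 FPKM and Sln at 0.0671 and 0.367, both near 0. Hsph1, a heat shock protein, had a member with a start of its own that rose from 12.8 to 25.5 FPKM, with a share of 45.1% in Ctrl and 53.1% in DKO. Grk5, a kinase that desensitises G protein-coupled receptors, had a member that rose from 8.64 to 16.7 FPKM at a share of 71.0% and 68.6%.

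Further members were higher at lower folds. H2-Eb1 encodes a chain of the MHC class II antigen-presenting complex, and its member was at 36.2 FPKM in DKO against 20.3 in Ctrl. Apoe, which encodes a lipid carrier made by macrophages among other cells, had a member at 135 and 90.4 FPKM. The 5 macrophage markers were all called higher in DKO, with a summed level of 280 FPKM in DKO against 170 in Ctrl, and in bulk tissue more cells of a type and more RNA per cell cannot be told apart. Their part in the H2-Eb1 and Apoe values was not tested. Epn3, an epsin of endocytosis, had a member at 17.2 and 10.5 FPKM. Dpysl3, of a family that acts on the cytoskeleton, had one at 13.6 and 8.48 FPKM. The shares of the H2-Eb1, Apoe and Dpysl3 members differed by less than 3 points. Further called rises, chosen after their values were seen, included those of Masp1, Clu, Sparc, Acta2 and Arhgdia, with folds of 1.44, 1.38, 1.38, 1.36 and 1.24. Sparc is a matrix protein of fibroblasts and Acta2 is smooth muscle actin. The fibroblast markers summed to 596 FPKM in DKO against 471 in Ctrl with 3 of 5 called, and the smooth muscle markers to 415 and 335 FPKM, of which Acta2 itself was the only one of 4 called. Their part was not tested.

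Among the lower members, Dmd led. Dmd encodes dystrophin, which ties the cytoskeleton to the membrane and matrix, and the gene has several promoters. Its member of 4440 bases, against 13852 bases for the annotated isoform, was at 5.51 FPKM in DKO against 16.9 in Ctrl, 3.07-fold lower (q = 0.00312 in the authors' deposited table). The annotated full-length isoform was also called, at 2.01 and 10.9 FPKM, and the share of the 4440-base member was 58.6% and 56.6%. A 13820-base Dmd member that shares the start of the full-length isoform was at 1.89 and 2.07 FPKM, a share of 20.1% in DKO and 6.93% in Ctrl, and its q in the authors' deposited table was 0.978.

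Sox6 was 1 of the targeted genes, and its member of 8196 bases, 31 bases shorter than the annotated isoform, was at 0.896 FPKM in DKO against 2.20 in Ctrl (q = 0.00583 in the authors' deposited table). Its share was 53.2% in DKO and 64.7% in Ctrl. The other 3 Sox6 isoforms were annotated and had no test, and they went different ways. The 8193-base isoform was at 0.703 and 0.348 FPKM, the 8079-base isoform at 1.70e-04 and 0.851 FPKM, and the 8227-base isoform at 0.0868 FPKM and listed at 0. Which exons each isoform holds was not analysed here, so these values do not separate transcripts with and without the deleted part. Sox5 had 5 isoforms, all without a test, and its class j isoforms stayed under the level rule. The 7226-base class j isoform of Sox5 was at 0.0965 FPKM in DKO against 0.205 in Ctrl, and the 7079-base annotated isoform at 0.400 and 0.164. The untargeted SoxD gene Sox13 had 1 isoform, which was annotated, at 9.41 and 8.96 FPKM.

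The other lower members of called genes included enzymes and signalling proteins. Ogdhl, a relative of the oxoglutarate dehydrogenase of the citric acid cycle, had a called member at 19.6 FPKM in DKO against 39.6 in Ctrl, with a share of 40.6% and 48.8%. Ptprn2, a receptor-type phosphatase family gene, had a member that made up nearly all of the gene in both genotypes (99.1% in Ctrl), at 6.01 and 12.1 FPKM. For 2610528E23Rik, whose function is not described here, a member of 1009 bases was at 23.7 and 46.6 FPKM, and its share was 49.9% in DKO against 61.3% in Ctrl. Tmem164 had a member at 8.15 and 14.4 FPKM, and Ralgapa2, a subunit of a Ral GTPase-activating complex, one at 9.23 and 15.8 FPKM. In the authors' deposited table, the highest q among these 5 was 0.00809. Named after their values were seen, the other called falls in called genes were those of Pkia, an inhibitor of protein kinase A (1.61-fold), Bckdhb, of branched-chain amino acid breakdown (1.54-fold), Chd6, a chromatin remodeller (1.5-fold), 3632451O06Rik (1.45-fold), Efcab2 (1.44-fold), Zfyve21 (1.42-fold), the mitochondrial leucyl-tRNA synthetase gene Lars2 (1.38-fold), Asb5 (1.36-fold) and the complex I subunit gene Ndufs8 (1.26-fold).

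The called Zfyve21 and Lars2 members differed from the annotated isoform by lengths found among exons. The Zfyve21 member, 54 bases longer like the exon printed above, was at 19.9 FPKM in DKO against 28.4 in Ctrl, while the shorter annotated isoform was at 8.95 and 8.88 FPKM. The share of the longer isoform was 69.0% in DKO and 76.2% in Ctrl. The Lars2 member, 90 bases shorter than the annotated isoform, was at 33.1 and 45.8 FPKM, and its share was 70.2% and 80.8%. The annotated Lars2 isoform was at 11 and 10.8 FPKM. Outside the rule for naming, another Lars2 member, of 3880 bases, was at 3.08 and 0.0942 FPKM. Its share was 6.52% in DKO and 0.166% in Ctrl, and it was not called. Lars2 has a single coding exon of 90 bases in GENCODE M21, and no annotated transcript skips it. In both genes the called member was lower by the authors' test, and the annotated isoform was not called.

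In 6 genes a member was called and the gene as a whole was not. They were Kdm1a, Srsf6, Matr3, Arhgap23, Ptpn14 and Fuca2, of which Kdm1a is named after its values were seen, and 5 of the 6 members differed in share by at least 10 percentage points. Kdm1a encodes LSD1, a demethylase that removes methyl groups from histone H3. The member with 60 more bases was at 4.31 FPKM in DKO against 7.22 in Ctrl, a share of 28.7% and 46.4% (q = 0.0458 in the authors' deposited table). The annotated Kdm1a isoform, with which it shares its start, was at 10.7 and 8.34 FPKM (q = 0.350), and the gene was at 15 and 15.6 FPKM. The gene total thus differed by less than 1 FPKM between the pooled values.

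Srsf6 and Matr3 encode RNA-binding proteins of the nucleus. Srsf6 is an SR protein that regulates splicing, and its member of 3162 bases, with a start of its own, was at 4.42 FPKM in DKO against 9.45 in Ctrl (q = 0.0415 in the authors' deposited table). The annotated Srsf6 isoform was at 39.4 and 36.2 FPKM, so that the share of the member was 10.1% and 20.7%. Matr3 encodes matrin 3, and its member was at 3.93 and 10.1 FPKM, a share of 9.08% and 22.1% (q = 0.0448). The annotated Matr3 isoform was at 28.8 and 24.2 FPKM, and the locus also holds an isoform named for another gene.

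Arhgap23 and Ptpn14 had members with starts of their own. Arhgap23, a GTPase-activating protein, had a called member of 5560 bases at 3.02 FPKM in DKO against 5.33 in Ctrl (q = 0.0415 in the authors' deposited table). Its share was 43.1% in DKO and 80.0% in Ctrl, the only called member among the 245 that differed by at least 20 points. A second member of Arhgap23, of 5328 bases, was at 3.20 and 1.32 FPKM and was not called. Ptpn14 encodes a protein tyrosine phosphatase. Its member of 9783 bases was at 2.56 FPKM in DKO against 1.01 in Ctrl, a share of 31.9% and 14.0% (q = 0.00583 in the authors' deposited table), and the annotated isoform was at 5.47 and 6.25 FPKM. Fuca2, a fucosidase, had a called member at 19.6 and 9.55 FPKM, which was 17.1% and 9.80% of the gene.

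**Figure D3:**
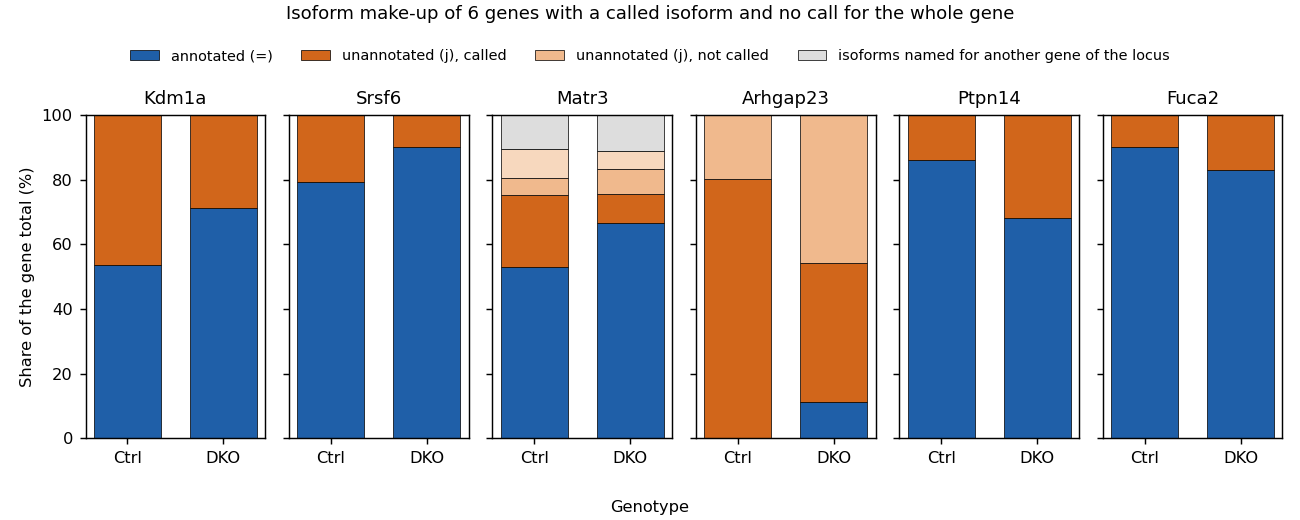
Share of the gene total (y axis, percent) held by each isoform in Ctrl and DKO for the 6 genes with a called member and no call for the gene; blue is annotated, dark orange is the called member, pale orange tints are class j isoforms that were not called, and grey is an isoform named for another gene of the same locus. The called member of Kdm1a is 46.4% of the gene in Ctrl and 28.7% in DKO, and that of Ptpn14 is 14.0% in Ctrl and 31.9% in DKO.

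Differences in share were common among members, and few came with a call. A share that differed by at least 10 percentage points was listed for 756 members (19.3%), 392 of them gains in DKO (10%) and 364 losses (9.31%). Among the 2741 annotated isoforms of the same genes the figures were 462 (16.9%), with 213 gains (7.77%) and 249 losses (9.08%). Over all 10460 isoforms of that length and level in genes with several isoforms it was 20.4%, with 10% gains and 10.4% losses. Of the 756 members, 8 were called, and the median q of the 756 was 0.779 in the authors' deposited table. The median absolute difference was 3.55 points, against 3.25 for annotated isoforms of the same genes, and 2350 members (60.1%) stayed under 5 points. The level rule takes a mean, so it keeps isoforms that are near 0 in 1 genotype. There were 135 members under 0.1 FPKM in 1 genotype, 60 in DKO and 75 in Ctrl, none was called, and their lowest q was 0.592 and lowest unadjusted p 0.0806.

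**Figure D4:**
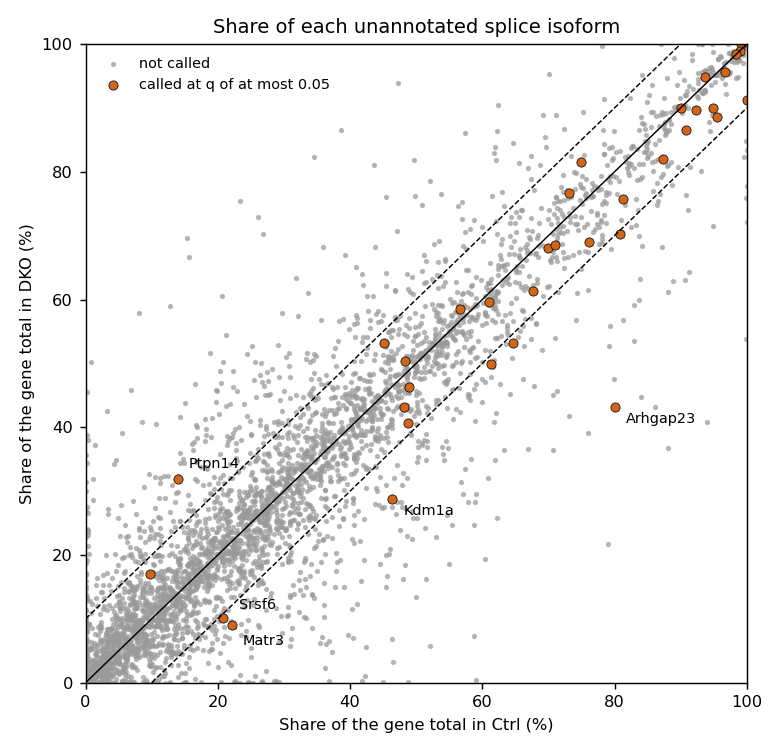
Share of the gene total in DKO (y axis, percent) against that in Ctrl (x axis, percent) for the 3910 members; grey points were not called, orange points are the 35 called members, the solid line marks equal shares and the dashed lines a difference of 10 percentage points. Most orange points lie between the dashed lines, while many grey points lie outside them.

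The isoform on the other side of a share difference was recorded by its class. For each of the 756 members, the isoform of the gene with the largest opposite difference was class = in 422 cases (55.8%) and class j in 334 (44.2%), and it was called in 8. In 380 cases both isoforms had the same start group. Every member's gene lists a class = isoform, and where a gene lists a single other isoform, that isoform is the partner by definition. Paired members of a gene can be counted from both sides. These counts thus depend on the make-up of the genes. The most abundant isoform of the gene differed between genotypes in 310 of 2342 genes (13.2%). It was class j in Ctrl and class = in DKO in 109 genes, the reverse in 114, another class j isoform in 69 and another class = isoform in 18. A class j isoform led in 1200 genes in Ctrl and in 1205 in DKO, and 4 of the 310 genes had a called leader. Where the leading isoform had to be ahead by at least 10 points in both genotypes, there were 75 such genes.

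Large differences in share were found mostly in genes of low level. Among members of genes with a mean total under 5 FPKM, 29 of 72 (40.3%) differed by at least 10 points. The figure was 43.6% at 5 to 10 FPKM, against 32.6% at 10 to 20 FPKM, 18.9% at 20 to 50, 8.24% at 50 to 100 and 4.84% from 100 FPKM on. The level rule is a fixed FPKM, so in genes of high level it keeps members with small shares, which have less room to fall. How much of the order of the classes comes from that rule was not tested. The 868 members in the highest class included 9 of the 35 calls, and the 362 members in the class of 5 to 10 FPKM included 4. Members with a start of their own (2107, or 53.9%) and members that shared a start group with an annotated isoform (1803) had 18.7% and 20% at 10 points or more.

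**Figure D5:**
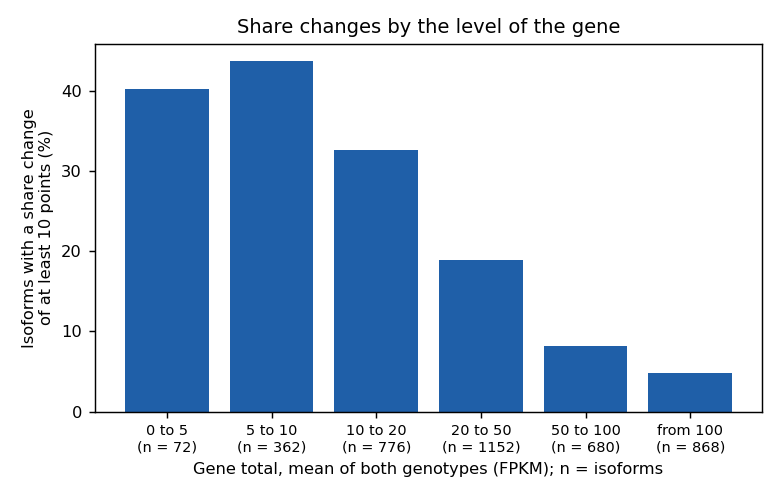
Percent of members with a share difference of at least 10 percentage points (y axis) in 6 classes of the mean gene total in FPKM (x axis), with the number of members in each class below it. The percentage is 43.6% at 5 to 10 FPKM and 4.84% from 100 FPKM on.

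The largest gains in share were not called for any of the 10 members named by the rule. Arid1a encodes a DNA-binding subunit of the BAF chromatin remodelling complex. Its member, 3 bases shorter than the annotated isoform, was at 7.95 FPKM in DKO against 1.08 in Ctrl, a share of 58.0% and 8.16%, and the annotated isoform was at 5.77 and 12.1 FPKM, with a gene total of 13.7 and 13.2. The piece matches the CAG printed above, and the q of the member was 0.730 in the authors' deposited table. Ankib1, of a ubiquitin ligase family, showed the same form with 18 bases, where the longer member was at 3.93 and 1.34 FPKM and the annotated isoform at 1.46 and 3.8. Its share was 72.9% in DKO and 26.1% in Ctrl, and its q in the authors' deposited table was 0.634. Dhx38, an RNA helicase of the spliceosome, had a member 3 bases shorter at 3.08 and 0.0102 FPKM, with a share of 45.5% and 0.154%. In these 3 genes the total was within 1 FPKM between genotypes.

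The other 7 gains named by the rule also had no call. Rps6ka3, the kinase RSK2, had a member 20 bases shorter with a start of its own that held 75.5% in DKO and 23.3% in Ctrl. Rasgrp2, an exchange factor for Rap, had a member at 10.6 and 2.84 FPKM that held 66.6% in DKO and 15.7% in Ctrl. The annotated Rasgrp2 isoform was called lower, at 5.30 FPKM in DKO against 15.3 in Ctrl (q = 0.00312 in the authors' deposited table), while the gene was at 15.9 and 18.1 FPKM and was not called. For Zbtb7a, a zinc finger repressor, 1 member held 50.3% in DKO and 0.820% in Ctrl, and another held 36.7% and 88.0%. Both Zbtb7a members have starts of their own and differ from each other by 24 bases. Xrcc5, the Ku80 subunit of DNA repair, had a pair of members from 1 start group, at 86.5% and 38.7% and at 0.0608% and 45.0%, while the summed level of that start group was 10.5 FPKM in each genotype. The remaining gains were those of Numa1 (59.0% and 12.7%), Ptprk (70.3% and 26.9%) and Plxnb1 (60.6% and 20.7%).

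The largest losses followed the same form. The Sestd1 member was at 0.0246 FPKM in DKO against 3.34 in Ctrl, and its share was 0.442% and 59.1%, while the gene total was 5.58 and 5.65 FPKM. Ckap5, a microtubule polymerase, had a member at 21.7% in DKO and 79.0% in Ctrl, and Csrnp1, a nuclear protein, one at 40.9% and 93.9%. Their gene totals were 13.7 and 14.9, and 7.39 and 7.65 FPKM. Adcy9, an adenylyl cyclase, had a member at 43.2% and 86.0%, and Klhl22, an adaptor of a ubiquitin ligase, a member 12 bases shorter at 53.8% in DKO and nearly all of the gene in Ctrl. Tti1 (0.0954% and 48.8%) and the hormone-sensitive lipase gene Lipe (3.31% and 46.6%) completed the list. The Tnrc6b member was at 4.69 and 4.84 FPKM, and its share of 7.31% in DKO and 58.8% in Ctrl came with a small RNA of 82 bases at the same locus, listed at 56.4 FPKM in DKO and at 0 in Ctrl. With isoforms of at least 200 bases alone in the total, the difference of the Tnrc6b member was 2.1 points in place of -51.5. None of the losses was called.

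Members with an exon match were described by the same threshold, with no test against other members. At least 10 points were reached by 55 of the 197 members with a skipped-exon match (27.9%), 33 gains and 22 losses, and by 53 of the 132 with an exon-end match (40.2%), 30 gains and 23 losses. Matches can only come from members 1 to 300 bases from their annotated isoform, of which 574 of 2213 (25.9%) reached 10 points. Kdm1a and Zfyve21 were the 2 called members with a skipped-exon match, and none with an exon-end match was called, beside 0.895% of all members. Chosen after their values were seen, the member of Tpp2, a peptidase, that is 39 bases shorter was at 4.76 FPKM in DKO against 10.9 in Ctrl, a share of 22.5% and 49.4%. The 15-base longer member of Gdpd5 was at 1.92 and 5.88 FPKM, a share of 25.7% and 62.2%. The 3-base longer member of Sos2, a Ras exchange factor, was at 5.75 and 0.480 FPKM, a share of 42.6% and 3.20%. The lowest q among these 3 members was 0.596 in the authors' deposited table.

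Splicing regulators had 65 members in 33 of the 59 listed genes. At least 10 points were reached by 4 gains and 4 losses (12.3%, against 19.3% of all members). The lower member of Srsf6 was the 1 called, beside 0.895% of all members. Of 55 tested genes of the list, Rbfox1 alone was called (beside 7.36% of all tested genes), and it was lower, at 11.2 against 17.0 FPKM. Within Rbfox1, a regulator that binds UGCAUG, the annotated 4085-base isoform was called lower, at 5.51 FPKM in DKO against 12.4 in Ctrl, while the member of 4138 bases was at 4.36 and 4.26 FPKM and its share was 39.0% and 25.1%. The Tia1 member that is 33 bases shorter was at 5.05 and 6.74 FPKM, a share of 52.8% and 66.3%, and the longer annotated isoform was at 4.44 and 3.42 FPKM. Rbm25 had a member at 17.3 and 11.5 FPKM, a share of 56.2% and 40.6%. Neither was called. Outside the rule for naming, the 36-base shorter Mbnl1 member held 12.4% and 13.7%, and the 2 members of Rbm20, the regulator of titin splicing, held 50.4% and 52.6% and 24.7% and 24.5%.

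Genes known for alternative splicing in heart muscle had 146 members in 39 genes. Of these, none was called (beside 0.895% of all members) and 6 differed by at least 10 points (4.11%, against 19.3% of all members). The median gene share of these members was 8.75% in Ctrl, against 26.4% for all members. Mef2c, a transcription factor of muscle, had a pair of members from 1 start group that differed in opposite directions. The member of 6026 bases was at 7.78 FPKM in DKO against 3.35 in Ctrl, and that of 6019 bases at 3.87 and 8.43, with shares of 48.8% and 20.4% and of 24.3% and 51.3%. Fn1 encodes fibronectin, whose extra domains are spliced in and out. Its member 273 bases shorter held 36.9% and 50.3%, and the gene was higher in DKO, at 11.8 against 7.96 FPKM. Outside the rule, the 3 members of Ttn, which encodes titin, held 83.1% and 80.3%, 5.90% and 7.09%, and 8.99% and 10.9%. The 4 members of Camk2d, the main calcium and calmodulin dependent kinase of the heart, had shares within 4 points between genotypes. The Nexn member with a 42-base match held 3.17% and 1.71%.

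Sarcomere, Z-disc and M-band genes had 91 members with no call, beside 0.895% of all members. Differences of at least 10 points numbered 6 (6.59%, against 19.3% of all members). The median share of the 91 was 12.5% in Ctrl, against 26.4% for all members, and small shares have less room to fall. Whether share or gene level bears on the count was not tested. Myot, for myotilin of the Z-disc, had a member of 2024 bases at 6.27 FPKM in DKO against 18.6 in Ctrl and one of 2085 bases at 17.0 and 7.55, with shares of 11.9% and 30.7% and of 32.4% and 12.5%. Synpo2l, another Z-disc gene, had a member at 21 and 3.78 FPKM, a share of 30.7% and 8.85%, and the gene was called higher. The cardiomyocyte markers of the same tissue summed to 51381 FPKM in DKO against 59541 in Ctrl, with 0 of 7 called.

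Membrane, dystrophin complex and intercalated disc genes had 89 members, of which the lower Dmd member was the only one called, beside 0.895% of all members. At least 10 points were reached by 6 (6.74%, against 19.3% of all members). The median share of the 89 was 13.0% in Ctrl, against 26.4% for all members. Utrn, the homologue of dystrophin, had a member of 12425 bases at 1.49 FPKM in DKO against 4.93 in Ctrl, a share of 10.1% and 33.4%, with a gene total of 14.7 and 14.8. Tln2, a talin, had a member at 36.5% and 16.2%, and Ank3, an ankyrin, one at 19.7% and 5.75%. Calcium handling and channel genes had 50 members, none called, beside 0.895% of all members. At 10 points or more there were 5 (10%, against 19.3% of all members). Their median share was 18.7% in Ctrl. Itpr1 encodes a calcium release channel of internal stores. Its member of 9784 bases was at 2.41 and 0.939 FPKM and that of 9808 bases at 0.819 and 3.15, with shares of 25.3% and 10.2% and of 8.61% and 34.2%. Kcnj3, a subunit of the acetylcholine-gated potassium channel, was called lower as a gene, at 18.7 against 30.1 FPKM, while its member was at 7.85 and 6.07 FPKM, a share of 42.1% and 20.2%.

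Mitochondrial and fuel genes had 102 members, none called (beside 0.895% of all members), and 2 with a gain of at least 10 points (1.96%, against 10% of all members). Of 71 tested genes of the list, 24 were called lower and 4 higher, beside 3.06% lower and 4.3% higher over all tested genes. Ckmt2, the mitochondrial creatine kinase, had 4 isoforms, 3 of them with 1486 bases. Its members of that length were at 570 and 368 FPKM and at 340 and 625 FPKM, and the annotated isoform was at 340 and 368 FPKM, equal to 1 member in DKO and to the other in Ctrl. Ppara, the fatty acid sensor, was called lower as a gene, at 20.1 against 25.6 FPKM, and its member of 7169 bases was at 10.9 and 5.44 FPKM, a share of 54.4% and 21.3%. In the cardiac stress list, 2 of 6 members were called higher, those of Nppa and Hsph1, beside 0.384% of all members. Of the 32 tested genes of that list, 22 were called higher and 0 lower, beside 4.3% and 3.06% of all tested genes. All gene lists, these included, were chosen with earlier results of these data known. The counts of each list thus describe its own genes and cannot be weighed against the shares over all members or genes. Nr4a1, an immediate early gene, had a member at 23.6 and 2.49 FPKM and one at 14.9 and 14.7, with shares of 40.9% and 8.49% and of 25.7% and 50%, and neither was called although the gene was higher.

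Of 24 members of heart transcription factor and SoxD genes, 10 (41.7%, against 19.3% of all members) differed by at least 10 points, 5 in each direction. Opposite members of Mef2c and of Irx4 are both counted. Over all members the figure was 32.6% in genes of 10 to 20 FPKM and 18.9% at 20 to 50 FPKM. The part of gene level in this list was not tested. The lower Sox6 member was the 1 called, beside 0.895% of all members. The Foxo3 member, 4 bases longer than the annotated isoform, was at 7.65 FPKM in DKO against 14.5 in Ctrl, a share of 47.6% and 79.9%. Matrix and fibroblast genes had 19 members, of which the higher Sparc member was called and 6 (31.6%, against 19.3% of all members) reached 10 points. Col15a1, of basement membranes, had members at 32.9% and 48.0% and at 47.9% and 29.3%, and Ltbp4, a binding protein of latent TGF-beta, one at 28.3% and 13.5%. The macrophage, complement and blood list had only 4 members, of which that of H2-Eb1 was called and none reached 10 points. For both lists the share called over all members was again 0.895%. The globin members were at 142 FPKM in DKO against 130 in Ctrl for Hba-a2 and at 219 and 205 FPKM for Hbb-b1, and near-identical globin copies make both uncertain.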

How the data were processed

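Ventricle RNA of 4 DKO and 4 Ctrl mice was sequenced as single-end Illumina TruSeq libraries, per the labels' protocols. Reads were aligned with TopHat2 2.0.9 to mm9, and Cufflinks 2.1.1 and Cuffdiff 2.1.1 were used, per the submitters' processing notes. Their annotation and settings were not stated in the sources used here. The deposited isoform, gene and start-group tables hold the authors' FPKM values, 1 pooled value per genotype, per the file headers. The p-values and q-values are the authors' own from Cuffdiff, per the file headers, with a smallest p of 5e-05. Such values have no error per animal, depth is unknown, and no test across animals was run.

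The share of an isoform is its FPKM divided by the summed FPKM of all isoforms under its gene identifier, per genotype. Ratios were recomputed as DKO over Ctrl. Members, gene lists and the naming rule were chosen with earlier results of these data known. The rule named the 10 largest called rises and falls, the 10 largest share gains and losses in genes of at least 5 FPKM, the 5 members with the highest level and the 5 such members over 50% of their gene, up to 3 members per list, 3 on each side of the level threshold, and SoxD isoforms. GENCODE M21 served for exon lengths and sequences, and no coordinates were converted from mm9. The gene of 3770 members was found there. The counting was tested on simulated data. Python 3.11.15, pandas 2.3.3, numpy 2.4.6 and matplotlib 3.10.9 were used. A few isoforms, 1 of them called, are not reported here.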

Additional observations from a re-analysis of the deposited data

How the results depend on the processing

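No paired analysis was possible because the tables hold 1 pooled value per genotype, and for the same reason no animal could be left out in turn. The 35 calls (15 higher, 20 lower) were 19 at a q under 0.01 (9 and 10) and 22 with a fold of at least 1.5 (9 and 13). With a mean of at least 5 FPKM, or a length of at least 1000 bases, 32 were called. The 756 share differences of at least 10 points became 367 with a mean of at least 5 FPKM (181 gains, 186 losses), 1560 at 5 points (794 and 766) and 245 at 20 points (116 and 129), and 583 to 757 under the other settings, among them gene identifiers with 1 gene name only, chosen after seeing the data. Genes with another leading isoform numbered 200 with a mean of at least 5 FPKM and 75 with a margin of 10 points. The median summed share stayed at 50.4% to 54.3%. With 1 FPKM added to every isoform, the share difference of the called Dmd member turned from 1.90 to -2.06 points. That of the called Ptprn2 member turned from 0.907 to -4.64. Another 24 of 101 named isoforms moved, and among isoforms that were not called a change of sign was counted as a move. Log2 ratios with 1 FPKM added moved in 23 of 100 named isoforms.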
